A study of Mus musculus with 16 samples.

Results

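The genes described here are the metalloproteinases that cut or remodel the extracellular matrix and cell surface proteins, together with their inhibitors. They were chosen by name: every row of the gene count table whose symbol is Mmp, Adam or Adamts followed by a number, or Timp1 to Timp4. The rule found 79 of 53800 genes, of which 23 were Mmps, 33 Adams, 19 Adamts genes and 4 Timps. The samples were the tips (distal 150 µm) of forelimb buds of mouse embryos of the B6 strain, with no treatment and no engineered allele named in the labels, collected daily over 4 stages, starting with embryonic day 9.5 (E9.5) and ending with E12.5. After trypsin on ice, the ectoderm (the covering epithelium) was peeled from the mesoderm (the core of mesenchyme with its vessels and blood), and polyadenylated RNA of each layer was sequenced. The 8 groups of layer and stage had 2 libraries each, 16 in all, and the ectoderm and mesoderm library of a stage that carry the same replicate number came from 1 batch of embryos. How many embryos made up a batch is not stated in the labels. Replicates 1 and 2 were extracted with different RNeasy kits, so that embryo batch and kit cannot be told apart.

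Mmps are secreted or membrane-bound enzymes with a zinc ion in the active site, made as inactive precursors, and between them they degrade collagens, gelatin, proteoglycans and other matrix proteins. Most Adams sit in the cell membrane and release the outer parts of growth factors, receptors and adhesion proteins, while Adamts proteins are secreted, bind the matrix, and cut proteoglycans such as versican or the ends of procollagens. Timps are small secreted proteins that block the active sites of these enzymes, and Timp2 also takes part in the activation of pro-Mmp2 by Mmp14. In the limb bud these proteins act at the basement membrane between ectoderm and mesoderm, in the versican-rich matrix of the mesenchyme and, later, in the tissue between the digits.

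Library totals lay between 10005867 and 30438214 counts, and 44 of the 79 members passed the filter on low counts, among 15501 genes tested. Levels are given as CPM (counts scaled to a common library size by edgeR), first replicate 1 and then replicate 2. The summed level of 13 surface epithelium markers was 2502 to 7244 CPM in the ectoderm libraries and 13.1 to 94.7 CPM in the mesoderm libraries. The sum of 12 limb mesenchyme markers was 427 to 1599 CPM for the ectoderm and 1991 to 5205 CPM in mesoderm. Its highest ectoderm value was that of E11.5 replicate 1, in which the median mesenchyme marker stood at 39.0% of its mesoderm level. Endothelial markers (12 genes) summed to 6.12 to 34.6 CPM for the ectoderm and 369 to 702 CPM in mesoderm, and 9 erythroid markers to 13.4 to 753 and 2365 to 5252 CPM. The part of mesenchyme carried into ectoderm, and of vessels and blood in mesoderm, in the levels below was not tested. In bulk tissue, fewer cells of a type and less RNA per cell cannot be told apart.

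Of the 35 members that did not pass the filter, 18 had no count in any library, and the other 17 had 371 counts in all 16 libraries together, at most 75 for a gene (Mmp19). Among them were the 4 collagenases Mmp1a, Mmp1b, Mmp8 and Mmp13, which cut fibrillar collagens, and 18 of the 21 Adams known mainly from the reproductive tract. A block of 10 Mmp genes that lie side by side on chromosome 9 (Mmp13, Mmp12, Mmp1b, Mmp3, Mmp1a, Mmp10, Mmp8, Mmp27, Mmp20 and Mmp7, chr9:7272514-7699585, mm10) gave 37 counts in the 16 libraries together, and 7 of its 10 genes gave none. A group without counts allows a level of up to 0.0687 to 0.115 CPM (3 counts over its 2 libraries; counting error only). Nothing more can be said of these Mmps at this depth. Near-identical copies such as Mmp1a and Mmp1b, or Adam6a and Adam6b, share sequence, and reads that fit both copies may be missing from their counts.

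Promoter sequences (RefSeq, GRCm38.p6, 250 bases before to 50 after the annotated start) were at hand for 49 of the 79 members, with 54 starts. They are shown because the members below and above the count filter held different shares of the short motifs counted here, although the first set includes Adams and Mmps with some counts and the second includes members near the limit of detection such as Timp4. The letters TGANTCA, which AP-1 factors bind, occurred in 13 of the 54 member promoters (24.07%) and in 7.808% of all 32851 promoters of the same length, on either strand. They were present in 12 of the 24 promoters of members that did not pass the count filter and in 1 of the 30 promoters of members that passed it, that of Adam19. TATAAA occurred in 13 of 24 and 1 of 30 promoters of these sets (25.93% of all member promoters against 13.62% of all promoters), and the GC box GGGCGG in 2 of 24 and 21 of 30 (42.59% against 35.66%). TCAAAG, a core of TCF/LEF sites, occurred in 7 of 24 and 2 of 30 (16.67% against 16% of all promoters). Most promoters below the filter that held TGANTCA or TATAAA were those of the chromosome 9 block. Both motifs occurred there in a promoter of Mmp3, Mmp7, Mmp10, Mmp12, Mmp13, Mmp1a, Mmp1b and Mmp20. Related genes that lie side by side are not independent observations. The promoters of all genes were not split by the same count filter, so the contrast between these sets cannot be called a trait of this family. These counts describe letters in a window and are no measure of binding.

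The 250 bases before the start are printed for 2 Mmps of the chromosome 9 block, Mmp3 with no count and Mmp13 with 20 in the 16 libraries together, and for 3 members with large differences between layers or stages. Capitals mark the AP-1 letters, the TATA box and the GC box named above, on either strand.
Mmp3 (chr9:7445572-7445821, + strand): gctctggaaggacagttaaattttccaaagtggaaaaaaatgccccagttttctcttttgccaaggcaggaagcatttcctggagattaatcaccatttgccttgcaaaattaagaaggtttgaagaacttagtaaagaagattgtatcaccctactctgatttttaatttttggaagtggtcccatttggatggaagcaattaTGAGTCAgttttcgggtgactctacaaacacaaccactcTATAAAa
Mmp13 (chr9:7272264-7272513, + strand): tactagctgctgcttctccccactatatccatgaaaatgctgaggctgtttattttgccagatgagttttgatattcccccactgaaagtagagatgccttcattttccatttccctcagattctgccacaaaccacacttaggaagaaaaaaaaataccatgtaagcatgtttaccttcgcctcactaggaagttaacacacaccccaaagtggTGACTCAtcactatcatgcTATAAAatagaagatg
Mmp28 (chr11:83463041-83463290, - strand): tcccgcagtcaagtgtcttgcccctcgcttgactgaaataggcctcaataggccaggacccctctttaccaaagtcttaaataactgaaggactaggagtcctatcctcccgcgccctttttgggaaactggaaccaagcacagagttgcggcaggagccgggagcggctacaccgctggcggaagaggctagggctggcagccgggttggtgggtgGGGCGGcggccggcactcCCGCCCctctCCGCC
Adamts18 (chr8:113848840-113849089, - strand): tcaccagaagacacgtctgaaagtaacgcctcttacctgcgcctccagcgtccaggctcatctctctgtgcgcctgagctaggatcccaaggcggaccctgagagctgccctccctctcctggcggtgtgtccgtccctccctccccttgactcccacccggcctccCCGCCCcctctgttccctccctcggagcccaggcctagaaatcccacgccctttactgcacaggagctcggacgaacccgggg
Adamts17 (chr7:66839485-66839734, + strand): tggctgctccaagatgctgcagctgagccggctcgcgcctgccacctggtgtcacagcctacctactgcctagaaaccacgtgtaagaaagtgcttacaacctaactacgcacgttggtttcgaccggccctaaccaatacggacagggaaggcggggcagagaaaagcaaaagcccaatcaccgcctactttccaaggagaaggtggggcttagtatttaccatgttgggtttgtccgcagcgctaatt
Both of these Mmps have a TGANTCA motif followed by TATAAA, a layout known from stromelysin and collagenase genes. The Mmp28 and Adamts18 windows have GC boxes, the last of Mmp28 running on past the printed bases, and neither of the other motifs, and the Adamts17 window has no marked letters.

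Per unit of transcript length (the authors' FPKM), a few members made up much of the family's RNA. In mesoderm Mmp2, a gelatinase that also cuts basement membrane collagen, was the highest member at each of the 4 stages, with a mean of 88.3 FPKM at E9.5 and 137 at E12.5, which were 33.3% and 28.5% of the summed FPKM of the 79 members. In ectoderm the first place went to Mmp14, the membrane-bound activator of Mmp2, at E9.5 (54.02 FPKM) and E12.5 (45.8 FPKM). Adamts18 was first at E10.5 (49.8 FPKM against 44.1 for Mmp14) and Mmp2 at E11.5 (52.5 against 51.7 for Mmp14). These neighbours in the order are not separated by the 2 libraries: at E11.5 Mmp2 was 72.1 and 32.9 FPKM in replicates 1 and 2, and Mmp14 57.2 and 46.2 FPKM. The summed FPKM of the 4 Timps was 16.58 and 11.54 in the ectoderm libraries of E9.5 and 76.0 and 55.4 in the mesoderm libraries of E12.5, the lowest and the highest pair among the 8 groups.

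**Figure D1:**
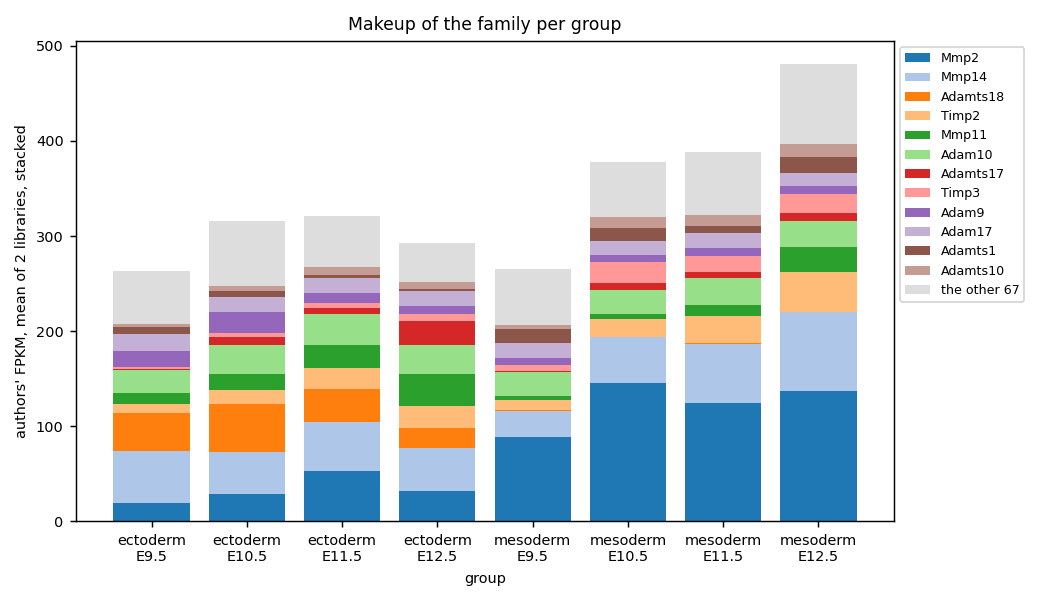
Stacked bars give the authors' FPKM (mean of 2 libraries, y axis) of the 12 members with the highest group mean and of the other 67 together, for the 8 groups on the x axis. Mmp2 (dark blue) is the widest band in each mesoderm group, and Adamts18 (orange) is a wide band in ectoderm and nearly absent in mesoderm.

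**Figure D2:**
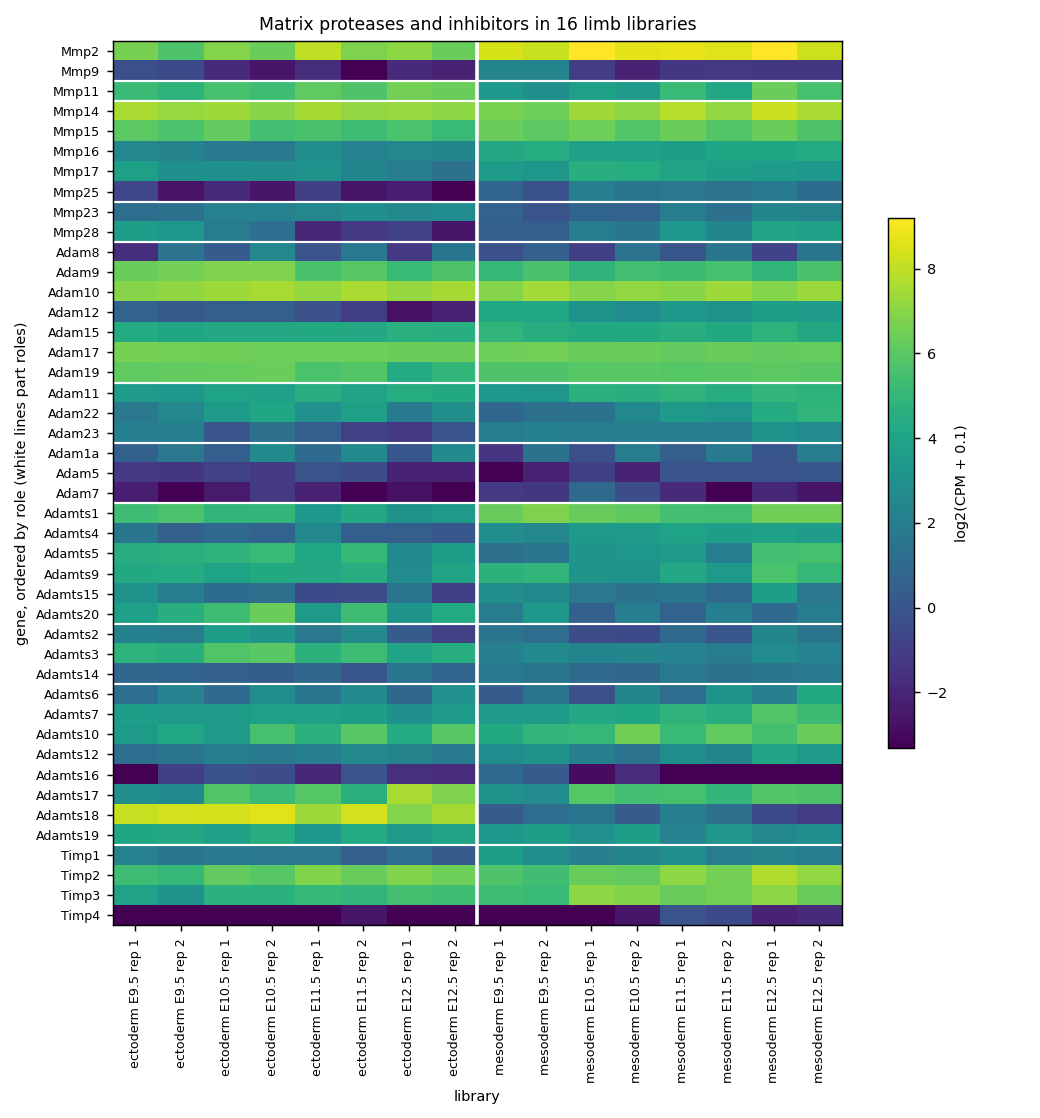
Colour gives log2(CPM + 0.1) of the 44 members that passed the count filter (rows, ordered by role, white lines between roles) in each of the 16 libraries (columns). Adamts18 is bright in the 8 ectoderm columns and dark in the 8 mesoderm columns, and Mmp28 and Adam12 darken with stage in ectoderm.

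Averaged over the 4 stages, 29 of the 44 members tested differed between ectoderm and mesoderm (edgeR, adjusted p under 0.05), 10 higher in ectoderm and 19 lower, while 45.7% of all genes tested were called, 24.3% higher and 21.4% lower. Values after ± are standard errors of the fit, with 8 libraries per layer in the average and 2 per group at a stage. The median difference of the members was -0.30 on the log2 scale and that of all genes 0.01. Among the 10 higher in ectoderm were Adamts18, Adamts20, Adamts3, Mmp11 and Adam9, and among the 19 lower were Adam12, Mmp2, Mmp16, Adamts1, Timp1, Timp2 and Timp3. In 6 members (Adamts18, Adamts3, Adam12, Mmp25, Mmp2 and Mmp16) the 8 ectoderm and 8 mesoderm libraries did not overlap, which was so for 12.9% of all genes tested.

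**Figure D3:**
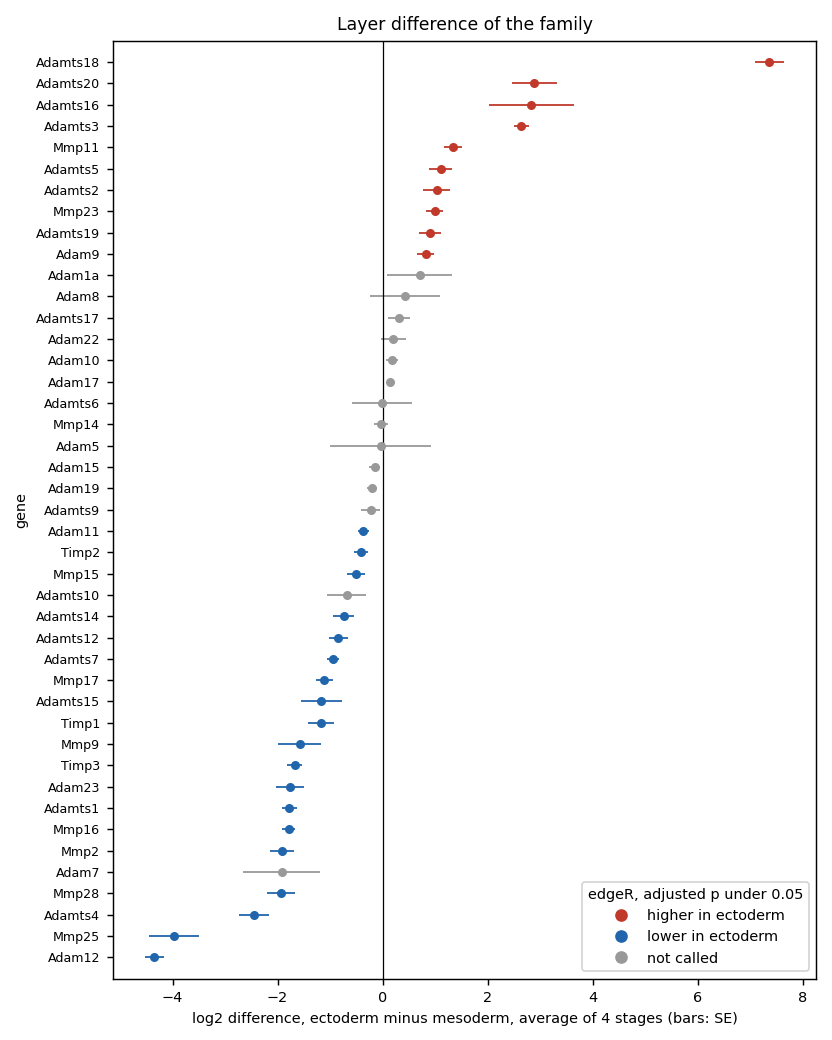
Points give the fitted log2 difference of ectoderm minus mesoderm, averaged over 4 stages (x axis, bars are the SE), for the members that passed the count filter, without Timp4, whose 36 counts allow no such fit. Adamts18 stands alone at 7.37 on the right and Adam12 lies at -4.35 on the left; red and blue mark adjusted p under 0.05.

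The split changed with stage. At E9.5, 7 members were higher in ectoderm and 7 lower (21.4% of all genes tested were called, 13.1% higher and 8.29% lower), at E10.5, 9 and 9 (26.4% called, 16.2% and 10.2%), and at E11.5, 8 and 11 (20.6% called, 12.9% and 7.69%). At E12.5 the members called were 3 higher in ectoderm (Adamts18, Adamts3 and Adamts17) and 20 lower, beside 26.4% of all genes tested, 13.3% higher and 13.2% lower. The median difference of the members at E12.5 was -1.32, that of all genes 0.04. Blocked by embryo batch, 11 members were higher and 14 lower at E9.5 (22.1% and 20.3% of all genes tested under the same block), 18 lower at E11.5 (18.1%), and 7 higher at E12.5 (23.9%), and the members called without the block were called with it too. At E11.5 the count higher in ectoderm fell to 2 when ectoderm replicate 2 was left out, to 5 for mesoderm replicate 1 and to 4 for mesoderm replicate 2, and the count lower fell to 5 without ectoderm replicate 2 or mesoderm replicate 1. At E9.5 the count lower in ectoderm also fell without ectoderm replicate 1. The number of all genes called fell at both stages in such refits as well, as given at the end.

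From E9.5 to E12.5, 6 members rose and 8 fell in ectoderm (16.1% of all genes tested were called, 9.10% higher and 7.0% lower), and 12 rose and 2 fell in mesoderm (29.6% called, 17.0% higher and 12.6% lower). The change differed between the layers in 12 members (8.27% of all genes tested were called), and in each of these 12 it was lower in ectoderm than in mesoderm; 5.15% of all genes tested were called in that direction and 3.12% in the other. These 12 were Mmp28, Adamts5, Adam5, Adam23, Adam22, Adam12, Adamts2, Adamts7, Adamts1, Mmp17, Adam19 and Mmp14. No member was called in the other direction by edgeR. DESeq2 called 1 and edgeR without the count filter 2, but the share of all genes is not given for these fits. The fit blocked by embryo batch called 3 beside 19 lower (11.7% and 13.2% of all genes tested under that block). At an unadjusted p under 0.05 the edgeR fit had 2 members (Adamts16 and Adamts17) in that direction. The ectoderm counts fell to 3 risen and 5 fallen without ectoderm E9.5 replicate 1, and to 2 risen without ectoderm E9.5 replicate 2. Blocked by replicate number, 14 members fell in ectoderm and 6 in mesoderm, where 17.5% and 24.8% of all genes tested were called lower. Without mesoderm E12.5 replicate 1, 1 member fell in mesoderm. The interaction count fell to 7 without ectoderm E12.5 replicate 1 and to 6 without mesoderm E9.5 replicate 1, and 1 member was called in the other direction without ectoderm E9.5 replicate 2. In refits with a library left out, the number of all genes called fell too, for the change in each layer and for the interaction, as given at the end. Of the 44 members, 13 had their highest group mean in mesoderm at E12.5, and 9 each in ectoderm at E10.5 and mesoderm at E9.5.

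**Figure D4:**
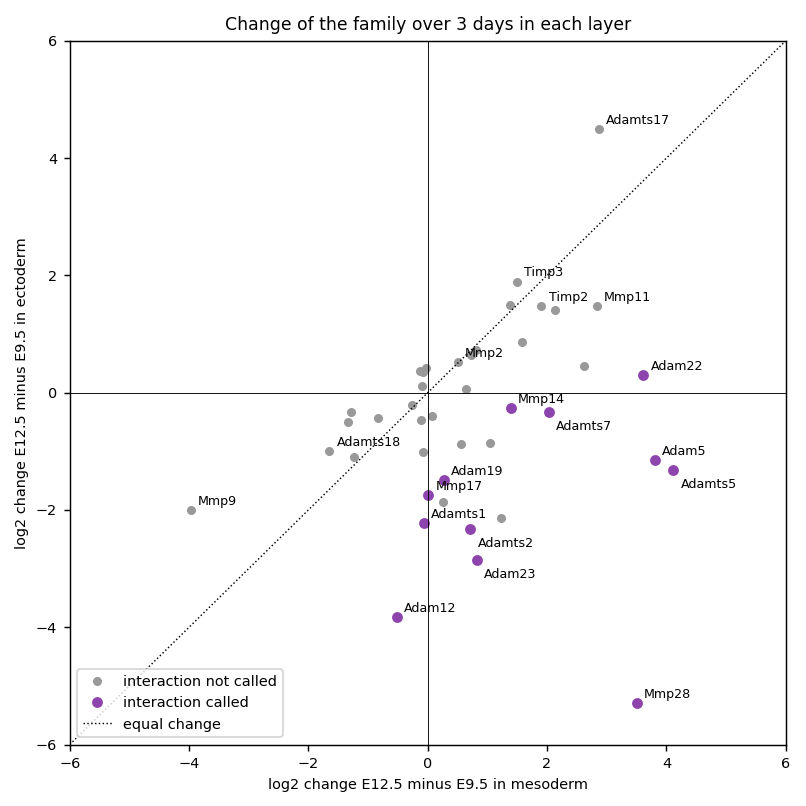
Each point is a member, with its log2 change from E9.5 to E12.5 in mesoderm on the x axis and in ectoderm on the y axis; Timp4 and Adamts16 are left out because a group without counts allows no such fit. The 12 members whose change differed between layers (purple) lie below the dotted line of equal change, with Mmp28 farthest from it.

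The 2 gelatinases were both lower in ectoderm on average. Mmp2 (chr8:92827291-92853420, + strand) in ectoderm stood at 97.9 and 53.3 CPM (E9.5), 116 and 84.5 (E10.5), then 254 and 111 (E11.5) and last 133 and 82.2 (E12.5). In mesoderm it was 345 and 285 CPM (E9.5), 590.1 and 406 (E10.5), then 448 and 391 (E11.5) and last 588 and 304 (E12.5). The groups did not overlap, and the ectoderm library closest to mesoderm, E11.5 replicate 1, is the one with the highest mesenchyme markers. The average difference was -1.91 ± 0.23 (SE, edgeR adjusted p = 3.0e-05), lower in ectoderm in 8 of 8 embryo batches; at E11.5 it was -1.20 ± 0.45 (SE, edgeR adjusted p = 0.086), where blocking by embryo batch gave an adjusted p of 5.6e-04. Mmp2 did not pass the test for a change with stage in ectoderm, 0.51 ± 0.45 (SE, edgeR adjusted p = 0.53), or in mesoderm, 0.50 ± 0.44 (SE, edgeR adjusted p = 0.45). At E12.5 the layer difference, -2.05 ± 0.46, lost its call without ectoderm E12.5 replicate 2 or mesoderm E12.5 replicate 1 (edgeR adjusted p = 0.058 to 0.063). At E9.5 the difference, -2.06 ± 0.46, lost its call without ectoderm E9.5 replicate 2 (edgeR adjusted p = 0.082).

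Mmp9 (chr2:164940780-164955850, + strand), the gelatinase known from macrophages, osteoclasts and growing bone, was nearly absent after E9.5. Mmp9 in mesoderm measured 4.92 and 4.86 CPM (E9.5), 0.380 and 0.136 (E10.5), then 0.310 and 0.333 (E11.5) and last 0.305 and 0.305 (E12.5). Its ectoderm levels were 0.738 and 0.603 CPM (E9.5), 0.177 and 0.0667 (E10.5), then 0.213 and 0 (E11.5) and last 0.183 and 0.132 (E12.5). The 2 mesoderm libraries of E9.5 stood above the other 14 libraries. In mesoderm it fell by E12.5, -3.97 ± 0.73 (SE, edgeR adjusted p = 0.002); in ectoderm the fall was -2.01 ± 0.80 (SE, edgeR adjusted p = 0.12), with an adjusted p of 0.037 when blocked by replicate number. The summed level of 11 macrophage markers in mesoderm was 3.20 to 3.49 CPM at E9.5 and 79.7 to 196 CPM at E12.5. The part of macrophages in the Mmp9 level was not tested. At E9.5 the layer difference, -2.87 ± 0.69, lost its call without ectoderm E9.5 replicate 1, ectoderm E9.5 replicate 2 or mesoderm E9.5 replicate 1 (edgeR adjusted p = 0.058 to 0.1).

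Of the 5 membrane-type Mmps tested, 4 were lower in ectoderm on average and 1, Mmp14, was not called. Mmp14 (chr14:54431612-54445364, + strand), which cuts collagen at the cell surface and activates pro-Mmp2, began higher in ectoderm and ended level or lower. Mmp14 in ectoderm was 197 and 153 CPM (E9.5), 163 and 127 (E10.5), then 184 and 142 (E11.5) and last 155 and 135 (E12.5). Mmp14 in mesoderm was 102 and 86.6 CPM (E9.5), 174 and 129.6 (E10.5), then 221 and 146 (E11.5) and last 298 and 197 (E12.5). At E9.5 the ectoderm libraries lay above the mesoderm libraries and at E12.5 below them. The difference was 0.89 ± 0.27 (SE, edgeR adjusted p = 0.037) at E9.5 and -0.77 ± 0.27 (SE, edgeR adjusted p = 0.059) at E12.5, the latter at an adjusted p of 2.8e-04 when blocked by embryo batch. Mmp14 rose in mesoderm by 1.39 ± 0.27 (SE, edgeR adjusted p = 0.0032), and its change differed between layers by -1.66 ± 0.38 (SE, edgeR adjusted p = 0.022). The interaction lost its call without ectoderm E9.5 replicate 1, ectoderm E12.5 replicate 1, ectoderm E12.5 replicate 2, mesoderm E9.5 replicate 1, mesoderm E9.5 replicate 2 or mesoderm E12.5 replicate 1 (edgeR adjusted p = 0.056 to 0.094). The E9.5 difference lost its call without ectoderm E9.5 replicate 1, ectoderm E9.5 replicate 2, mesoderm E9.5 replicate 1 or mesoderm E9.5 replicate 2 (edgeR adjusted p = 0.059 to 0.23).

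Mmp16 (chr4:17852893-18119145, + strand), a membrane-type Mmp of mesenchyme and brain, was low and steady. Its ectoderm levels were 5.38 and 4.77 CPM (E9.5), 3.28 and 3.60 (E10.5), then 7.03 and 4.63 (E11.5) and last 5.72 and 5.21 (E12.5). Its mesoderm levels were 18.8 and 21.4 CPM (E9.5), 14.2 and 14.1 (E10.5), then 12.9 and 17.1 (E11.5) and last 16.8 and 20.9 (E12.5). The layers did not overlap, and the average difference was -1.79 ± 0.12 (SE, edgeR adjusted p = 3.1e-07), with the same direction in 8 of 8 embryo batches. Mmp17 (chr5:129584169-129611099, + strand), which is held in the membrane by a lipid anchor, overlapped between the layers at E9.5 and fell in ectoderm. Mmp17 in ectoderm went through 13.8 and 7.78 CPM (E9.5), 7.72 and 7.34 (E10.5), then 8.35 and 4.90 (E11.5) and last 3.75 and 2.57 (E12.5). Mmp17 in mesoderm measured 11.8 and 9.65 CPM (E9.5), 23.5 and 21.4 (E10.5), then 15.7 and 12.8 (E11.5) and last 11.6 and 10.002 (E12.5). The ectoderm fall was -1.75 ± 0.34 (SE, edgeR adjusted p = 0.0048), and the difference between the changes -1.76 ± 0.46 (SE, edgeR adjusted p = 0.04). The interaction lost its call without ectoderm E9.5 replicate 1, ectoderm E12.5 replicate 1, ectoderm E12.5 replicate 2, mesoderm E9.5 replicate 1, mesoderm E9.5 replicate 2, mesoderm E12.5 replicate 1 or mesoderm E12.5 replicate 2 (edgeR adjusted p = 0.061 to 0.17). The ectoderm fall lost its call without ectoderm E9.5 replicate 1 (edgeR adjusted p = 0.052). The layer difference at E11.5, -1.10 ± 0.32, lost its call without ectoderm E11.5 replicate 2, mesoderm E11.5 replicate 1 or mesoderm E11.5 replicate 2 (edgeR adjusted p = 0.066 to 0.27).

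The other 2 tested membrane types were also lower in ectoderm. Mmp15 was lower in ectoderm in 8 of 8 embryo batches, and edgeR blocked by embryo batch gave its average difference an adjusted p of 7.1e-06. It ranged over 34.7 to 72.3 CPM in ectoderm and 52.5 to 87.4 in mesoderm, overlapping ranges. Without the block its average difference was -0.51 ± 0.17 (SE, edgeR adjusted p = 0.028). This difference lost its call without ectoderm E9.5 replicate 2, ectoderm E10.5 replicate 2, ectoderm E11.5 replicate 2, ectoderm E12.5 replicate 2, mesoderm E9.5 replicate 1, mesoderm E10.5 replicate 1, mesoderm E11.5 replicate 1 or mesoderm E12.5 replicate 1 (edgeR adjusted p = 0.063 to 0.076). Mmp25, known from leukocytes, ranged over 0 to 0.527 CPM in ectoderm and 0.799 to 4.14 in mesoderm. At E12.5 its mesoderm group had 112 counts and its ectoderm group 2, a ratio of 52.7 (95% counting interval 14.3 to 440.5).

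Among the remaining Mmps, Mmp11 and Mmp23 were higher in ectoderm on average and Mmp28 changed sides. Mmp28 (epilysin, chr11:83440768-83463071, - strand) is a secreted Mmp known from keratinocytes and wounded skin. Mmp28 in ectoderm fell through 12.8 and 10.01 CPM (E9.5), 3.72 and 2.269 (E10.5), then 0.170 and 0.331 (E11.5) and last 0.457 and 0.0659 (E12.5). Mmp28 in mesoderm rose through 1.34 and 1.29 CPM (E9.5), 3.76 and 2.93 (E10.5), then 10.1 and 5.26 (E11.5) and last 15.7 and 14.3 (E12.5). At E9.5 both ectoderm libraries lay above both mesoderm libraries, at E10.5 they overlapped, and from E11.5 on the order was reversed. The layer difference was 3.11 ± 0.52 (SE, edgeR adjusted p = 0.0011) at E9.5, -0.17 ± 0.49 (SE, edgeR adjusted p = 0.85) at E10.5 and -5.69 ± 0.61 (SE, edgeR adjusted p = 4.0e-05) at E12.5. The change with stage was -5.29 ± 0.60 (SE, edgeR adjusted p = 1.9e-04) in ectoderm and 3.50 ± 0.52 (SE, edgeR adjusted p = 6.1e-04) in mesoderm, and the difference between them, -8.80 ± 0.80 (SE, edgeR adjusted p = 1.2e-04), had the largest absolute value among the 44 members. Of its exon bases 12.03% overlap 1700020L24Rik on the opposite strand, which had between 0 and 5 counts per group.

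Mmp11 (stromelysin-3, chr10:75923222-75936496, - strand), which furin activates inside the cell, rose in both layers. Mmp11 in ectoderm rose through 36.9 and 26.97 CPM (E9.5), 47.7 and 40.4 (E10.5), then 70.4 and 54.8 (E11.5) and last 96.4 and 81.1 (E12.5). In mesoderm Mmp11 was 10.3 and 7.502 CPM (E9.5), 14.04 and 10.7 (E10.5), then 35.7 and 17.5 (E11.5) and last 80.5 and 46.7 (E12.5). Ectoderm was higher in 8 of 8 embryo batches, but the layers came close at E12.5. On average the layers differed by 1.34 ± 0.18 (SE, edgeR adjusted p = 6.7e-05), the rise 1.48 ± 0.36 (SE, edgeR adjusted p = 0.016) in ectoderm and 2.84 ± 0.38 (SE, edgeR adjusted p = 3.1e-04) in mesoderm. The layer difference at E12.5 was 0.48 ± 0.35 (SE, edgeR adjusted p = 0.4), with an adjusted p of 0.022 when blocked by embryo batch, and the interaction -1.36 ± 0.50 (SE, edgeR adjusted p = 0.14), with 0.0034 under the block. The ectoderm rise lost its call without ectoderm E9.5 replicate 1, ectoderm E9.5 replicate 2 or ectoderm E12.5 replicate 1 (edgeR adjusted p = 0.053 to 0.14). The layer difference at E11.5, 1.23 ± 0.35, lost its call without ectoderm E11.5 replicate 1, ectoderm E11.5 replicate 2 or mesoderm E11.5 replicate 2 (edgeR adjusted p = 0.059 to 0.2). Of its exon bases 5.58% overlap Chchd10, which stood at 1.01 to 5.38 CPM over the groups. Mmp23 ranged over 2.22 to 7.35 CPM in ectoderm and 0.861 to 5.36 in mesoderm, and rose in both, by 1.42 ± 0.33 (SE, edgeR adjusted p = 0.013) and 2.12 ± 0.34 (SE, edgeR adjusted p = 9.0e-04). Its ectoderm rise lost its call without ectoderm E9.5 replicate 1, ectoderm E9.5 replicate 2 or ectoderm E12.5 replicate 2 (edgeR adjusted p = 0.068 to 0.093).

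**Figure D5:**
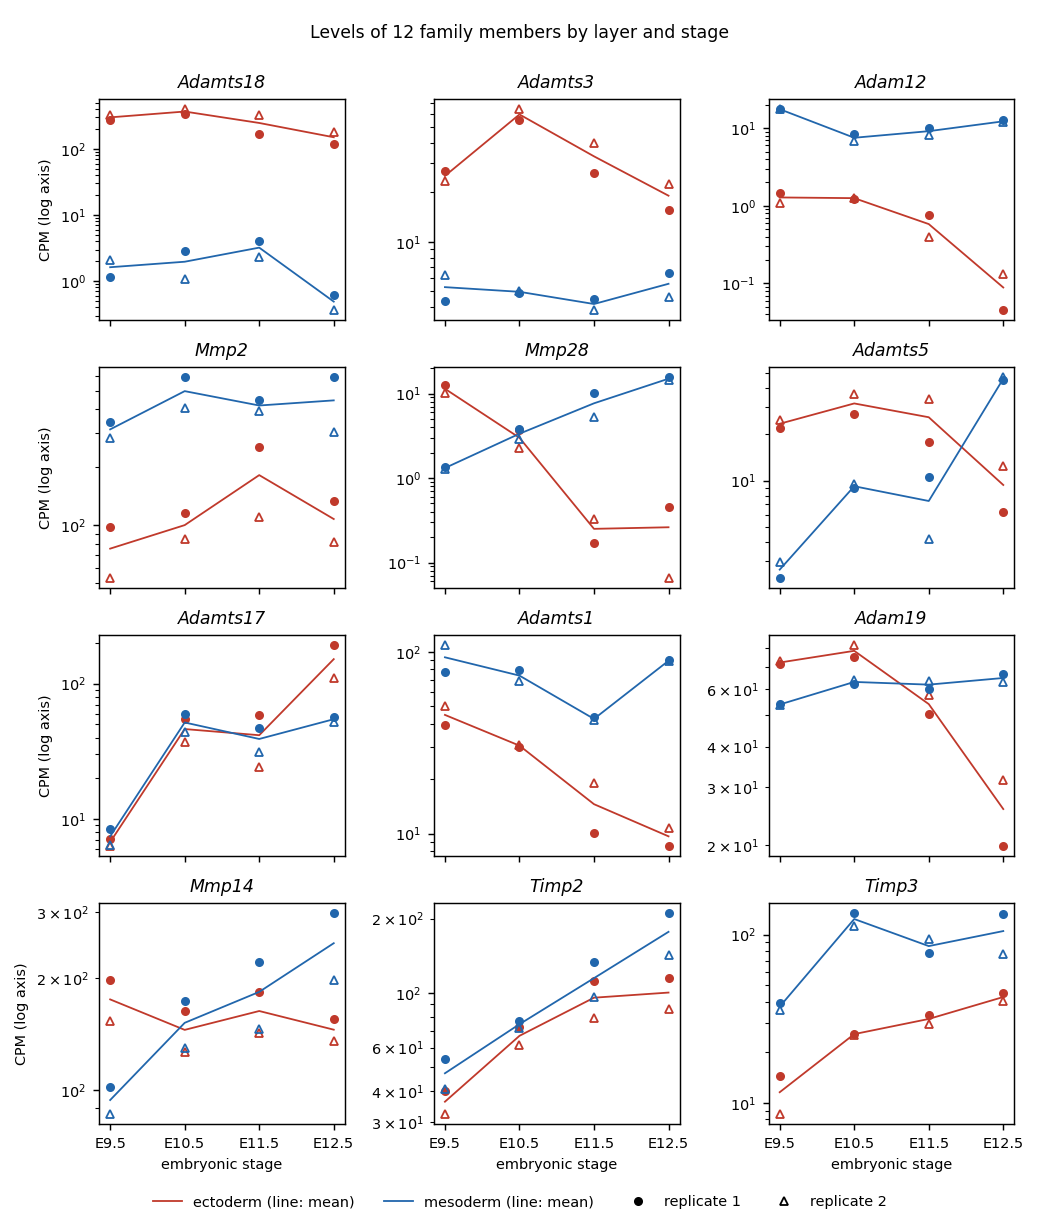
Each panel shows 1 member, with stage on the x axis and CPM on a log y axis; points are single libraries (filled circles replicate 1, open triangles replicate 2) and lines join the means of 2. Mmp28 and Adamts5 cross between layers, Adamts17 rises in both, and Adamts18, Adamts3, Adam12 and Mmp2 keep the layers apart at each stage.

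Of the 7 sheddase-type Adams tested, 1 was higher in ectoderm on average (Adam9), 1 lower (Adam12) and 5 were not called. Adam10 and Adam17, the sheddases of Notch and of TNF and EGF-family ligands, were high and even. Adam10 (chr9:70678997-70780229, + strand) in ectoderm was 121 and 142 CPM (E9.5), 165 and 190.4 (E10.5), then 149 and 194 (E11.5) and last 151 and 184 (E12.5). Adam10 in mesoderm was 123 and 174 CPM (E9.5), 123 and 147 (E10.5), then 126 and 163 (E11.5) and last 119 and 162 (E12.5). Replicate 2 was higher than replicate 1 in each of the 8 groups. The average difference was 0.18 ± 0.12 (SE, edgeR adjusted p = 0.24), with an adjusted p of 0.0048 when blocked by embryo batch; the block also called its layer differences at E10.5 (0.0054) and E12.5 (0.041), its ectoderm change (0.012) and its interaction (0.04).

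Adam17 (chr12:21323509-21373632, - strand) was also even. Its levels in ectoderm were 98.3 and 94.2 CPM (E9.5), 90.996 and 87.7 (E10.5), then 86.8 and 86.6 (E11.5) and last 82.6 and 84.4 (E12.5). Its levels in mesoderm were 87.9 and 92.1 CPM (E9.5), 77.4 and 83.4 (E10.5), then 73.7 and 82.8 (E11.5) and last 73.9 and 75.99 (E12.5). Ectoderm was higher in 8 of 8 embryo batches, by a small amount, 0.14 ± 0.06 (SE, edgeR adjusted p = 0.082), and the block gave an adjusted p of 0.023. Over the 3 days it changed by -0.26 ± 0.12 (SE, edgeR adjusted p = 0.12) in mesoderm (adjusted p = 0.024 when blocked by replicate number). Of its exon bases 4.35% overlap Iah1, which stood at 13.2 to 25.2 CPM over the groups.

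Adam12 (meltrin alpha, chr7:133883199-134232146, - strand), known from muscle fusion and mesenchyme, had the lowest average difference, ectoderm minus mesoderm, of the 44 members. Adam12 in ectoderm fell through 1.48 and 1.09 CPM (E9.5), 1.24 and 1.27 (E10.5), then 0.767 and 0.397 (E11.5) and last 0.0457 and 0.132 (E12.5). Adam12 in mesoderm was 17.6 and 17.5 CPM (E9.5), 8.28 and 6.75 (E10.5), then 10.02 and 8.26 (E11.5) and last 12.6 and 11.8 (E12.5). The layers did not overlap, and the gap widened with stage. The layer difference averaged -4.35 ± 0.19 (SE, edgeR adjusted p = 5.9e-09), and that at E9.5 -3.79 ± 0.34 (SE, edgeR adjusted p = 1.4e-05). At E12.5 mesoderm had 484 counts and ectoderm 3, a ratio of 152 (95% counting interval 51.6 to 739). Within ectoderm, E9.5 stood above E12.5 by a ratio of 15.2 (4.74 to 77.4; 32 and 3 counts), and the interaction was -3.31 ± 0.58 (SE, edgeR adjusted p = 0.0052). At E11.5 replicate 1, where mesenchyme markers were highest, ectoderm Adam12 was 7.65% of its mesoderm level and the median mesenchyme marker 39.0%. At E10.5 the order was the reverse, with Adam12 at 15.0% and 18.8% and the median marker at 8.83% and 10.2%. At the other stages Adam12 lay below the median marker. The part of carried mesenchyme in ectoderm Adam12 was not tested.

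Adam19 (meltrin beta, chr11:46055992-46147343, + strand), which cuts neuregulins and is needed in heart cushions, fell late and in ectoderm. Adam19 in ectoderm was 71.3 and 73.1 CPM (E9.5), 75.1 and 81.7 (E10.5), then 50.3 and 57.5 (E11.5) and last 19.9 and 31.7 (E12.5). Adam19 in mesoderm was 53.97 and 53.6 CPM (E9.5), 62.3 and 63.7 (E10.5), then 60.1 and 63.5 (E11.5) and last 66.5 and 63.1 (E12.5). The ectoderm libraries lay above those of mesoderm at E9.5 and E10.5 and below them at E11.5 and E12.5. The ectoderm change was -1.49 ± 0.19 (SE, edgeR adjusted p = 4.5e-04), the mesoderm change 0.27 ± 0.19 (SE, edgeR adjusted p = 0.33), and the difference between them -1.76 ± 0.27 (SE, edgeR adjusted p = 0.0026). Blocked by embryo batch the adjusted p of the layer difference was 0.038 at E9.5 and 0.028 on average. Of its exon bases 10.1% overlap the opposite-strand genes Gm16033 and Gm16034. Adam9, a sheddase of the epidermis and other epithelia, ranged over 35.4 to 111 CPM in ectoderm and 28.6 to 49.5 in mesoderm, was higher in ectoderm by 0.82 ± 0.15 (SE, edgeR adjusted p = 0.001), and fell there by -1.02 ± 0.31 (SE, edgeR adjusted p = 0.046). This fall lost its call without ectoderm E9.5 replicate 1, ectoderm E9.5 replicate 2, ectoderm E12.5 replicate 1 or ectoderm E12.5 replicate 2 (edgeR adjusted p = 0.06 to 0.27). Adam8 and Adam15 were not called in any of the 8 comparisons without a block.

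The 3 neural Adams (Adam11, Adam22 and Adam23), which have lost enzyme activity and act as receptors for Lgi proteins, rose in mesoderm in 2 of 3 cases (Adam11 and Adam22). Adam22 (chr5:8072352-8368160, - strand) in mesoderm rose through 1.77 and 2.34 CPM (E9.5), 2.42 and 5.73 (E10.5), then 10.6 and 9.19 (E11.5) and last 20.6 and 29.5 (E12.5). Adam22 in ectoderm was 3.16 and 5.49 CPM (E9.5), 11.3 and 17.1 (E10.5), then 7.92 and 13.7 (E11.5) and last 3.61 and 7.19 (E12.5). Ectoderm was above mesoderm at E9.5 and E10.5, overlapped it at E11.5 and was below it at E12.5. The mesoderm rise was 3.61 ± 0.52 (SE, edgeR adjusted p = 5.4e-04), the ectoderm change 0.29 ± 0.49 (SE, edgeR adjusted p = 0.79) and the interaction -3.32 ± 0.70 (SE, edgeR adjusted p = 0.014). The layer difference was 1.82 ± 0.49 (SE, edgeR adjusted p = 0.016) at E10.5 and -2.22 ± 0.49 (SE, edgeR adjusted p = 0.0052) at E12.5, and at E9.5 the block gave an adjusted p of 0.024. The interaction lost its call without ectoderm E9.5 replicate 2, ectoderm E12.5 replicate 1 or mesoderm E9.5 replicate 1 (edgeR adjusted p = 0.061 to 0.07). The E10.5 difference lost its call without ectoderm E10.5 replicate 2 or mesoderm E10.5 replicate 1 (edgeR adjusted p = 0.11 to 0.14). The E12.5 difference lost its call without ectoderm E12.5 replicate 1 (edgeR adjusted p = 0.057).

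Adam23 (chr1:63445891-63596276, + strand) in ectoderm fell through 4.11 and 4.16 CPM (E9.5), 0.887 and 2.34 (E10.5), then 1.24 and 0.463 (E11.5) and last 0.320 and 0.857 (E12.5). Adam23 in mesoderm was 3.92 and 4.49 CPM (E9.5), 3.69 and 3.96 (E10.5), then 4.03 and 3.73 (E11.5) and last 8.45 and 6.404 (E12.5). The layers overlapped at E9.5, and the ectoderm libraries lay below those of mesoderm at the later stages. Its fall in ectoderm was -2.85 ± 0.57 (SE, edgeR adjusted p = 0.0061), and the interaction -3.67 ± 0.75 (SE, edgeR adjusted p = 0.012). The ectoderm fall lost its call without ectoderm E12.5 replicate 1 (edgeR adjusted p = 0.065). The interaction lost its call without ectoderm E12.5 replicate 1 or mesoderm E9.5 replicate 1 (edgeR adjusted p = 0.055 to 0.06). The layer difference at E11.5, -2.14 ± 0.54, lost its call without ectoderm E11.5 replicate 2 or mesoderm E11.5 replicate 1 (edgeR adjusted p = 0.059 to 0.12). At E10.5 the block gave an adjusted p of 0.036 for the layer difference. Adam11 ranged over 10.01 to 23.05 CPM in ectoderm and 9.59 to 31.7 in mesoderm and rose in both, by 0.87 ± 0.23 (SE, edgeR adjusted p = 0.023) and 1.57 ± 0.23 (SE, edgeR adjusted p = 5.3e-04). Its ectoderm rise lost its call without ectoderm E9.5 replicate 1, ectoderm E9.5 replicate 2, ectoderm E12.5 replicate 1 or ectoderm E12.5 replicate 2 (edgeR adjusted p = 0.063 to 0.18). Its average layer difference, -0.36 ± 0.11, lost its call without ectoderm E9.5 replicate 2 or mesoderm E11.5 replicate 1 (edgeR adjusted p = 0.051 to 0.055). Of the 3 reproductive-tract Adams that passed the filter, Adam5 was called: in mesoderm E9.5 had 2 counts and E12.5 34, a ratio of 16.1 (4.12 to 138). Its interaction, -4.96 ± 1.22, lost its call without ectoderm E9.5 replicate 1, ectoderm E9.5 replicate 2, ectoderm E12.5 replicate 1, ectoderm E12.5 replicate 2, mesoderm E9.5 replicate 1, mesoderm E12.5 replicate 1 or mesoderm E12.5 replicate 2 (edgeR adjusted p = 0.072 to 0.1). Its layer difference at E12.5, -2.63 ± 0.77, lost its call without ectoderm E12.5 replicate 1, ectoderm E12.5 replicate 2, mesoderm E12.5 replicate 1 or mesoderm E12.5 replicate 2 (edgeR adjusted p = 0.075 to 0.14).

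The Adamts genes that cut versican and aggrecan split between the layers: of 6 tested, Adamts5 and Adamts20 were higher in ectoderm on average, Adamts1, Adamts4 and Adamts15 lower, and Adamts9 was not called. Adamts5, Adamts9 and Adamts20 are known to act together in removing the tissue between the digits. Adamts1 (chr16:85793827-85803113, - strand) in ectoderm fell through 39.5 and 50.4 CPM (E9.5), 30.1 and 30.8 (E10.5), then 10.01 and 18.997 (E11.5) and last 8.56 and 10.7 (E12.5). Adamts1 in mesoderm was 77.5 and 109 CPM (E9.5), 79.2 and 68.7 (E10.5), then 43.5 and 41.95 (E11.5) and last 89.7 and 88.7 (E12.5). Mesoderm was higher in 8 of 8 embryo batches, although its E11.5 libraries lay below the higher E9.5 ectoderm library. The ectoderm fall was -2.22 ± 0.29 (SE, edgeR adjusted p = 4.2e-04), the mesoderm change -0.06 ± 0.27 (SE, edgeR adjusted p = 0.9) and the interaction -2.16 ± 0.39 (SE, edgeR adjusted p = 0.0061). The layer difference was -1.05 ± 0.27 (SE, edgeR adjusted p = 0.016) at E9.5 and -3.21 ± 0.29 (SE, edgeR adjusted p = 1.3e-05) at E12.5. The E9.5 difference lost its call without ectoderm E9.5 replicate 1 or mesoderm E9.5 replicate 2 (edgeR adjusted p = 0.12 to 0.14). Adamts1 is also known from endothelial cells, whose markers were higher in the mesoderm libraries, as given above; their part was not tested.

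Adamts5 (chr16:85856173-85901828, - strand), the main aggrecanase of mouse cartilage, changed sides at the last stage. Adamts5 in ectoderm was 21.9 and 24.8 CPM (E9.5), 27.1 and 36.2 (E10.5), then 17.8 and 33.7 (E11.5) and last 6.27 and 12.46 (E12.5). Adamts5 in mesoderm was 2.34 and 2.95 CPM (E9.5), 8.90 and 9.48 (E10.5), then 10.6 and 4.20 (E11.5) and last 44.6 and 46.96 (E12.5). Both ectoderm libraries lay above both mesoderm libraries up to E11.5 and below them at E12.5. The layer difference was 3.15 ± 0.48 (SE, edgeR adjusted p = 5.9e-04) at E9.5 and -2.30 ± 0.44 (SE, edgeR adjusted p = 0.0024) at E12.5. The mesoderm rise, 4.11 ± 0.49 (SE, edgeR adjusted p = 1.7e-04), was the largest among the members of at least 5 CPM, while ectoderm changed by -1.33 ± 0.44 (SE, edgeR adjusted p = 0.062) (adjusted p = 0.015 when blocked by replicate number). The interaction was -5.44 ± 0.65 (SE, edgeR adjusted p = 6.2e-04). The layer difference at E10.5, 1.79 ± 0.44, lost its call without ectoderm E10.5 replicate 2, mesoderm E10.5 replicate 1 or mesoderm E10.5 replicate 2 (edgeR adjusted p = 0.056 to 0.074). That at E11.5, 1.79 ± 0.44, lost its call without ectoderm E11.5 replicate 2 or mesoderm E11.5 replicate 2 (edgeR adjusted p = 0.093 to 0.13). The sum of 8 cartilage condensation markers in mesoderm was 167 to 193 CPM at E9.5 and 993 to 1464 CPM at E12.5. In ectoderm the same sum was 1142 to 1693 CPM at E9.5 and 584 to 587 CPM at E12.5, so these markers were not confined to mesoderm. The part of cartilage cells in the Adamts5 levels was not tested.

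Adamts20, a versicanase known from the spread of pigment cells in skin, ranged over 8.83 to 81.6 CPM in ectoderm and 1.35 to 10.3 in mesoderm and was higher in ectoderm by 2.89 ± 0.42 (SE, edgeR adjusted p = 1.4e-04). Adamts4 ranged over 0.989 to 5.67 CPM in ectoderm and 5.41 to 15.5 in mesoderm and was lower in ectoderm by -2.45 ± 0.29 (SE, edgeR adjusted p = 2.3e-05); its highest ectoderm value was in E11.5 replicate 1. Adamts9 ranged over 6.405 to 21.98 and 8.53 to 49.9 CPM and differed at E12.5, -1.91 ± 0.38 (SE, edgeR adjusted p = 0.0031). Adamts15 ranged over 0.396 to 8.12 and 1.93 to 12.8 CPM. Its average difference, -1.17 ± 0.39, lost its call without ectoderm E9.5 replicate 2, ectoderm E10.5 replicate 1, ectoderm E10.5 replicate 2, ectoderm E11.5 replicate 2, mesoderm E9.5 replicate 1, mesoderm E10.5 replicate 1, mesoderm E11.5 replicate 1 or mesoderm E12.5 replicate 1 (edgeR adjusted p = 0.051 to 0.085).

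The 3 Adamts genes that trim the N-terminal ends of procollagens differed in direction: Adamts3 and Adamts2 were higher in ectoderm on average and Adamts14 lower. Adamts3 (chr5:89677087-89883334, - strand), which also activates the lymphatic growth factor Vegfc, in ectoderm was 27.01 and 23.4 CPM (E9.5), 54.9 and 64.3 (E10.5), then 26.4 and 39.9 (E11.5) and last 15.6 and 22.6 (E12.5). Adamts3 in mesoderm was 4.35 and 6.27 CPM (E9.5), 4.90 and 5.05 (E10.5), then 4.52 and 3.86 (E11.5) and last 6.49 and 4.64 (E12.5). The layers did not overlap, and the ectoderm peak was at E10.5. The average difference was 2.64 ± 0.15 (SE, edgeR adjusted p = 4.3e-08), and 1.77 ± 0.28 (SE, edgeR adjusted p = 6.8e-04) at E12.5. Adamts2 (chr11:50602084-50807573, + strand), the procollagen I peptidase of skin, in ectoderm was 4.43 and 3.86 CPM (E9.5), 12.3 and 8.88 (E10.5), then 3.15 and 5.82 (E11.5) and last 1.14 and 0.462 (E12.5). Adamts2 in mesoderm was 2.77 and 2.09 CPM (E9.5), 0.690 and 0.614 (E10.5), then 1.91 and 0.932 (E11.5) and last 5.27 and 2.68 (E12.5). Its ectoderm libraries lay above those of mesoderm up to E11.5 and below them at E12.5.

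For Adamts2 the layer difference was 3.998 ± 0.56 (SE, edgeR adjusted p = 2.8e-04) at E10.5 and -2.272 ± 0.53 (SE, edgeR adjusted p = 0.0075) at E12.5, the ectoderm fall from E9.5 to E12.5 -2.32 ± 0.54 (SE, edgeR adjusted p = 0.013), and the interaction -3.03 ± 0.73 (SE, edgeR adjusted p = 0.026). The interaction of Adamts2 lost its call without ectoderm E9.5 replicate 1, ectoderm E9.5 replicate 2, ectoderm E12.5 replicate 2, mesoderm E9.5 replicate 1, mesoderm E9.5 replicate 2 or mesoderm E12.5 replicate 1 (edgeR adjusted p = 0.064 to 0.1). Its ectoderm fall lost its call without ectoderm E9.5 replicate 1, ectoderm E9.5 replicate 2 or ectoderm E12.5 replicate 2 (edgeR adjusted p = 0.05 to 0.095). Its E12.5 difference lost its call without ectoderm E12.5 replicate 2 or mesoderm E12.5 replicate 1 (edgeR adjusted p = 0.068 to 0.073). Its E11.5 difference, 1.63 ± 0.51, lost its call without ectoderm E11.5 replicate 2, mesoderm E11.5 replicate 1 or mesoderm E11.5 replicate 2 (edgeR adjusted p = 0.051 to 0.31). Adamts14 ranged over 0.927 to 2.79 CPM in ectoderm and 1.64 to 3.58 in mesoderm, with an average difference of -0.74 ± 0.20 (SE, edgeR adjusted p = 0.01).

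Of the 8 other Adamts genes tested, 3 were called higher in ectoderm on average (Adamts16, Adamts18 and Adamts19), 2 lower (Adamts7 and Adamts12) and 3 not called; the Adamts16 call rests on empty mesoderm groups, as given below. Adamts18 (chr8:113697126-113848738, - strand), known from the development of the eye and of branching organs, had the largest difference between layers among the members. Adamts18 in ectoderm was 275 and 327 CPM (E9.5), 335 and 402 (E10.5), then 166 and 329 (E11.5) and last 117 and 183 (E12.5). Adamts18 in mesoderm was 1.15 and 2.09 CPM (E9.5), 2.83 and 1.09 (E10.5), then 4.08 and 2.33 (E11.5) and last 0.610 and 0.366 (E12.5). The lowest ectoderm library stood far above the highest mesoderm library. Averaged over stages, the difference was 7.37 ± 0.28 (SE, edgeR adjusted p = 2.9e-09), and it was 7.56 ± 0.57 (SE, edgeR adjusted p = 3.9e-06) at E9.5 and 8.21 ± 0.61 (SE, edgeR adjusted p = 3.0e-06) at E12.5. It did not pass the test for a change in ectoderm, -1.001 ± 0.42 (SE, edgeR adjusted p = 0.14), except when blocked by replicate number (adjusted p = 0.018). In mesoderm, where the epithelial markers summed to 94.7 CPM or less, its highest value was in E11.5 replicate 1, the mesoderm library with the highest sum of epithelial markers.

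Adamts17 (chr7:66839735-67153171, + strand), which acts on fibrillin microfibrils and is mutated in a short stature syndrome, rose in both layers. Adamts17 in ectoderm rose through 7.17 and 6.33 CPM (E9.5), 55.2 and 37.2 (E10.5), then 58.8 and 24.4 (E11.5) and last 193 and 111 (E12.5). Adamts17 in mesoderm was 8.50 and 6.395 CPM (E9.5), 59.2 and 44.1 (E10.5), then 46.7 and 31.4 (E11.5) and last 56.8 and 52.5 (E12.5). In each layer the 2 libraries of E9.5 lay below the other 6. The rise was 4.49 ± 0.46 (SE, edgeR adjusted p = 1.0e-04) in ectoderm and 2.87 ± 0.43 (SE, edgeR adjusted p = 6.3e-04) in mesoderm. The difference between these rises was 1.62 ± 0.58 (SE, edgeR adjusted p = 0.13), with an adjusted p of 0.0041 when blocked by embryo batch. At E12.5 ectoderm was higher by 1.47 ± 0.40 (SE, edgeR adjusted p = 0.017), and on average by 0.31 ± 0.20 (SE, edgeR adjusted p = 0.24) (adjusted p = 0.027 with the block). The E12.5 difference lost its call without ectoderm E12.5 replicate 1, mesoderm E12.5 replicate 1 or mesoderm E12.5 replicate 2 (edgeR adjusted p = 0.079 to 0.16).

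Adamts7, known from vessel walls and cartilage, rose in mesoderm by 2.02 ± 0.24 (SE, edgeR adjusted p = 1.8e-04) and ranged over 11.4 to 55.7 CPM there against 7.73 to 14.2 in ectoderm. Its interaction was -2.35 ± 0.34 (SE, edgeR adjusted p = 0.0019). Adamts16 had no counts in the 4 mesoderm libraries of E11.5 and E12.5, so that its fitted average depends on empty groups, and the call was lost without ectoderm E9.5 replicate 2 (edgeR adjusted p = 1). Ectoderm was lower in both embryo batches of E9.5 and higher in the other 6. Folds against a floor of 3 counts in the empty group take the counts of the other group as exact, so they are no lower bounds. By this measure ectoderm was 5.52-fold higher at E11.5 (17 counts, 4 and 13 in replicates 1 and 2). Mesoderm at E9.5 (56 counts) was 19.7-fold higher than at E12.5. Adamts12 was lower in ectoderm on average by -0.84 ± 0.18 (SE, edgeR adjusted p = 0.002), but in 5 of 8 embryo batches and higher in 3. It was lower in both batches of E9.5 and of E12.5, split at E11.5, and level or higher at E10.5 (log2 difference 0.015 and 0.43). Adamts19 was higher in ectoderm on average by 0.91 ± 0.21 (SE, edgeR adjusted p = 0.0036). Adamts6, Adamts10 and Adamts17 were not called in the average layer comparison without a block. Adamts10, a relative of Adamts17 that also acts on fibrillin, ranged over 11.4 to 61.96 CPM in ectoderm and 19.6 to 88.6 in mesoderm, with replicate 2 above replicate 1 in each group. Blocked by embryo batch it was called lower in ectoderm on average, by -0.76 (adjusted p = 3.2e-05), and was lower in 8 of 8 batches; Adamts6 was then called lower at E12.5 (adjusted p = 0.0024).

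Of the 4 inhibitors, Timp1, Timp2 and Timp3 were lower in ectoderm on average, and Timp2 and Timp3 rose with stage in both layers. Timp2 (chr11:118301069-118355740, - strand) in ectoderm rose through 40.1 and 32.3 CPM (E9.5), 72.6 and 61.3 (E10.5), then 112 and 79.2 (E11.5) and last 115 and 85.996 (E12.5). Timp2 in mesoderm rose through 53.7 and 40.7 CPM (E9.5), 77.04 and 72.3 (E10.5), then 133 and 96.4 (E11.5) and last 211 and 143 (E12.5). Mesoderm was higher in 8 of 8 embryo batches, and in each layer both E9.5 libraries lay below the other 6. The rise was 1.47 ± 0.27 (SE, edgeR adjusted p = 0.0035) in ectoderm and 1.90 ± 0.27 (SE, edgeR adjusted p = 4.7e-04) in mesoderm, and the average layer difference -0.41 ± 0.13 (SE, edgeR adjusted p = 0.025). The average difference lost its call without ectoderm E9.5 replicate 2, ectoderm E10.5 replicate 2, ectoderm E11.5 replicate 2, ectoderm E12.5 replicate 2, mesoderm E9.5 replicate 1, mesoderm E10.5 replicate 1, mesoderm E11.5 replicate 1 or mesoderm E12.5 replicate 1 (edgeR adjusted p = 0.052 to 0.066). The E12.5 difference, -0.82 ± 0.26, lost its call without ectoderm E12.5 replicate 1, ectoderm E12.5 replicate 2 or mesoderm E12.5 replicate 1 (edgeR adjusted p = 0.054 to 0.31). The ectoderm rise lost its call without ectoderm E9.5 replicate 2 (edgeR adjusted p = 0.051). Blocked by embryo batch the adjusted p of the layer difference was 0.0095 at E9.5 and 0.039 at E11.5. The same block gave the average difference an adjusted p of 2.1e-05, and the E12.5 difference one of 3.8e-05. Replicate 1 stood above replicate 2 in each of the 8 groups. The interaction was -0.43 ± 0.37 (SE, edgeR adjusted p = 0.63), with an adjusted p of 0.037 when blocked by embryo batch.

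Timp3 (chr10:86300372-86349506, + strand), the matrix-bound inhibitor that also blocks Adam17 and the aggrecanases, in ectoderm rose through 14.6 and 8.63 CPM (E9.5), 25.8 and 25.5 (E10.5), then 33.5 and 29.6 (E11.5) and last 45.1 and 40.1 (E12.5). Timp3 in mesoderm was 39.2 and 35.5 CPM (E9.5), 134 and 113 (E10.5), then 77.3 and 93.6 (E11.5) and last 133 and 77.03 (E12.5). Ectoderm was lower in 8 of 8 embryo batches. The average difference was -1.68 ± 0.14 (SE, edgeR adjusted p = 1.4e-06), and the rise 1.89 ± 0.29 (SE, edgeR adjusted p = 0.0011) in ectoderm and 1.49 ± 0.28 (SE, edgeR adjusted p = 0.0022) in mesoderm. The gene lies inside Syn3 on the opposite strand, and 21.3% of its exon bases overlap Syn3 exons; Syn3 stood at 0.457 to 4.56 CPM over the groups.

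Timp1 (chrX:20870166-20874735, + strand), an inhibitor known to follow growth factor and cytokine signals, was low. Its ectoderm levels were 4.54 and 2.84 CPM (E9.5), 3.46 and 3.07 (E10.5), then 2.98 and 1.26 (E11.5) and last 2.24 and 1.12 (E12.5). Its mesoderm levels were 12.99 and 7.13 CPM (E9.5), 4.35 and 5.05 (E10.5), then 7.40 and 3.86 (E11.5) and last 4.84 and 3.72 (E12.5). Ectoderm was lower in 8 of 8 embryo batches, by -1.18 ± 0.25 (SE, edgeR adjusted p = 0.0024) on average. No single stage was called by edgeR without a block; when blocked by embryo batch the adjusted p was 0.001 for E9.5, 0.0014 for E11.5 and 0.0018 for E12.5. The change with stage was -1.10 ± 0.52 (SE, edgeR adjusted p = 0.2) in ectoderm and -1.23 ± 0.49 (SE, edgeR adjusted p = 0.083) in mesoderm, with 0.025 and 0.006 under the replicate block.

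Timp4 (chr6:115241892-115252205, - strand), the inhibitor of heart and vessels, was at the limit of detection. Timp4 in mesoderm was 0 and 0 CPM (E9.5), 0 and 0.0682 (E10.5), then 0.842 and 0.599 (E11.5) and last 0.131 and 0.183 (E12.5). In ectoderm 7 of the 8 libraries had no count and E11.5 replicate 2 had 1. At E11.5 mesoderm had 28 counts and ectoderm 1, a ratio of 28.8 (95% counting interval 4.75 to 1176). The difference was called at an edgeR adjusted p of 0.05 and not without the count filter (0.074). It lost its call without ectoderm E11.5 replicate 1, ectoderm E11.5 replicate 2 or mesoderm E11.5 replicate 2 (edgeR adjusted p = 0.11 to 0.2). Syn2, which overlaps Timp4 on the opposite strand, had 171 counts in mesoderm and 51 in ectoderm at E11.5.

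Exon use within the members was tested apart from their level, on counts per exon bin (exons divided wherever the border of a transcript falls). None of 37 members with enough bins was called between the layers, beside 196 of 12203 genes (1.61%), in edgeR's diffSpliceDGE. Their number at an unadjusted p under 0.05 was 0 there and 1 by limma's diffSplice on voom values, which also called 0 after adjustment. Over all genes the median p per gene in diffSpliceDGE was 0.95. With so small a share of all genes called, the lack of calls among 37 members is no result about them.

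Genes that activate, hold or restrain these proteases were counted from fixed lists, averaged over stages and by edgeR. Of all genes tested, 45.7% were called in this comparison, 24.3% higher in ectoderm and 21.4% lower. Of 12 tested activators and chaperones of Adams and Mmps (proprotein convertases, iRhoms and C8 tetraspanins), 6 were higher in ectoderm and 2 lower, with a median log2 difference of 0.47. The largest were Pcsk5 (3.06 ± 0.12, adjusted p = 2.9e-09), a furin-like convertase, and Rhbdf1 (1.46 ± 0.13, adjusted p = 2.6e-06), an iRhom that carries Adam17 to the cell surface; lower were Tspan33 (-1.23 ± 0.18, adjusted p = 1.3e-04) and Pcsk7 (-0.25 ± 0.07, adjusted p = 0.013). Of 9 tested genes in the list of astacins and surface serine proteases, 5 were higher and 3 lower. The higher were led by St14 (7.45 ± 0.27, adjusted p = 1.8e-09), the epithelial protease matriptase, and Tmprss2 (7.05 ± 0.77, adjusted p = 4.3e-05). The lower were led by Tll1 (-2.97 ± 0.47, adjusted p = 2.8e-04) and Pcolce2 (-1.03 ± 0.14, adjusted p = 8.6e-05), a procollagen proteinase enhancer and not itself a protease. Of 9 other inhibitors, 3 were higher, led by Spint1 (5.53 ± 0.16, adjusted p = 5.9e-10) and Spint2 (4.65 ± 0.24, adjusted p = 2.3e-08), which restrain matriptase, and 4 lower, led by Spock3 (-2.56 ± 0.31, adjusted p = 3.5e-05) and Spock1 (-1.999 ± 0.40, adjusted p = 0.0016). Spint1 is also one of the epithelial markers used above.

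In the plasminogen activator system, Plat (0.81 ± 0.20, adjusted p = 0.0052), the tissue-type activator, was higher in ectoderm, and lower were Plau (-2.22 ± 0.16, adjusted p = 4.8e-07), the urokinase activator, and Plaur (-1.50 ± 0.32, adjusted p = 0.0023), its receptor. Of 5 tested Adamts-like genes and papilin, which bind matrix and have no protease domain, Adamtsl5 (6.24 ± 0.43, adjusted p = 6.7e-07) and Papln (4.08 ± 0.48, adjusted p = 2.4e-05) were higher and Adamtsl2 (-1.36 ± 0.20, adjusted p = 1.6e-04) and Adamtsl1 (-1.20 ± 0.30, adjusted p = 0.0064) lower. Of 14 tested substrates, 6 were higher, led by Hapln1 (2.72 ± 0.22, adjusted p = 1.1e-06), which links hyaluronan to proteoglycans, and Lgi4 (2.63 ± 0.45, adjusted p = 5.1e-04), and 5 lower, led by Fbn2 (-1.97 ± 0.25, adjusted p = 5.4e-05) and Matn3 (-1.95 ± 0.20, adjusted p = 7.1e-06).

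Among these partner genes the change between the first and last stage also differed between layers in some. Of all genes tested, 8.27% were called in this comparison, 3.12% with positive values and 5.15% with negative values. The values in this paragraph are the ectoderm change minus the mesoderm change, so a negative value says that the ectoderm change lay below that of mesoderm, not that it was smaller in size. In the list of other inhibitors 4 of 9 were called with negative values, among them Spock1 (-4.38 ± 1.156, adjusted p = 0.04) and Spint2 (-2.74 ± 0.61, adjusted p = 0.018). Reck, which blocks Mmps at the cell membrane, was another, -1.60 ± 0.35, adjusted p = 0.017, with a fall in ectoderm of -2.274 ± 0.26 (SE, edgeR adjusted p = 1.9e-04) and a change in mesoderm of -0.68 ± 0.25 (SE, edgeR adjusted p = 0.06). In the substrate list 3 of 14 were called with negative values, Matn4 (-6.38 ± 0.95, adjusted p = 0.0022), Ncan (-3.70 ± 0.74, adjusted p = 0.011) and Vcan (-1.99 ± 0.30, adjusted p = 0.0025), the last being the versican that several Adamts enzymes cut. In the plasminogen activator list the inhibitor Serpine2 (-2.55 ± 0.27, adjusted p = 3.5e-04) was called. Of the activators and chaperones, the value was positive for Tspan5 (2.16 ± 0.31, adjusted p = 0.002) and negative for Pcsk6 (-2.58 ± 0.66, adjusted p = 0.036) and Pcsk5 (-1.29 ± 0.31, adjusted p = 0.029). In the list of astacins and surface serine proteases the value was positive for Fap (4.24 ± 1.08, adjusted p = 0.034) and negative for Pcolce2 (-1.81 ± 0.40, adjusted p = 0.018). Of the Adamts-like genes it was negative for Adamtsl2 (-2.88 ± 0.59, adjusted p = 0.012). Reck and Vcan were picked after their values were seen.

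Replicate 2 stood above replicate 1 in all 8 groups for 7 of the 44 members (Adam10, Adamts19, Adam8, Adam1a, Adamts6, Adamts10 and Adamts20), and below it in all 8 for 10 (Mmp2, Mmp11, Mmp14, Mmp15, Mmp17, Mmp25, Adam15, Adam11, Adamts17 and Timp2). The same was so for 17.7% and 19.2% of all genes tested. Adam8, for example, was 0.764 and 1.35 CPM in replicates 1 and 2 of mesoderm at E9.5, and 0.320 and 2.84 in those of ectoderm at E12.5. The kit and the embryo batch behind this shift cannot be told apart.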

How the data were processed

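Distal forelimb ectoderm and mesoderm of B6 mouse embryos were sequenced in 16 libraries (8 groups of 2). Per the submitters' processing notes, the build was mm10, and the tools named are STAR 2.6.0c, bedtools 2.27.1, cutadapt 1.16 and Cufflinks 2.2.1. The authors deposited whole-number gene counts, FPKM values and counts per exon bin; the gene counter and its use of strand are not given in the sources used here, so reads of opposite-strand genes cannot be told apart. Gene positions (1-based) are those of GENCODE M21; 65 of 79 members had equal positions in the count table.

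The test of gene counts was the quasi-likelihood test of edgeR 4.0.16 (TMM, filterByExpr by group, 8 group means, Benjamini-Hochberg over 15501 genes, called at adjusted p under 0.05; R 4.3.3) and that of exon bins diffSpliceDGE. Scripts were tested on simulated data. The deposited FPKM served to compare levels between genes. Alternatives were RLE size factors, DESeq2 1.42.0, no count filter (for bins, a stricter one of 30 counts), a replicate block, each library left out and, chosen after seeing the data, limma 3.58.1 diffSplice. The labels state that ectoderm and mesoderm of a replicate share embryos, so the numbers pair the samples; same-stage deviations correlated at r = 0.621 to 0.760 (other stages 0.491 to 0.663). The replicates are separate collections per the labels. Members and gene lists were chosen with earlier results of these data known.

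Library values are given for 23 members: the 4 Timps, Mmp2, Mmp9, Mmp14, Adam10 and Adam17, up to 6 per direction by average layer difference without overlap, up to 4 per direction and layer by stage change, and 6 by interaction, each with at least 5 CPM in a group. Mmp9 and Timp4 were below that. From each partner list the 2 largest called genes per direction are named, with Reck and Vcan chosen after their values were seen; a result that would fall under this rule is not reported here. For some of the other members ranges are given. Total counts of 10005867 to 30438214 set a floor of 0.0687 to 0.115 CPM per group; intervals and floors cover counting error only. Floors use 3 counts over a group, and ratios with 1 to 3 counts in the lower group have 95% counting intervals.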

Additional observations from a re-analysis of the deposited data

Results flagged for a closer look

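Ectoderm and mesoderm differed in their change between the first and last stage, by the edgeR interaction term at an adjusted p under 0.05, in 12 members, against 8.27% of all genes tested. On the log2 scale, ectoderm minus mesoderm, the difference was -8.80 for Mmp28, -5.44 for Adamts5, -4.96 for Adam5 and -3.67 for Adam23. It was -3.32 for Adam22, -3.31 for Adam12, -3.03 for Adamts2 and -2.35 for Adamts7. It was -2.16 for Adamts1, -1.76 for Mmp17, -1.76 for Adam19 and -1.66 for Mmp14. Mmp28, Adamts5, Adam5, Adam22, Adamts2, Adam19 and Mmp14 lay higher in ectoderm at E9.5 and lower at E12.5 in both embryo batches of each stage. Adam5 rests on few counts, with 2 in its mesoderm group at E9.5, and lost its call in 7 of 8 refits without 1 library (edgeR adjusted p = 0.072 to 0.1). Groups of 2 libraries are too small for a test of single libraries that stand apart.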

How the results depend on the processing

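No called member changed direction under any alternative run. Of 143 calls of members over the 8 comparisons, 143 were kept with RLE size factors and with the replicate block, 142 of the 142 that DESeq2 tested, and 139 without the count filter; 95 were kept under each left-out library, and 149 of 967 such refits lost the call. With the replicate block, the genes called rose to 6573 at E9.5, 7531 a day later, 6197 at E11.5, 7080 for E12.5, 5480 for the ectoderm change, 7987 for the mesoderm change and 3873 for the interaction; members were 11 higher and 14 lower at E9.5, 18 lower at E11.5, 7 higher at E12.5, 14 and 6 fallen in ectoderm and mesoderm, and 3 and 19 in the interaction. Without the count filter, members lower at E9.5 were 11, higher at E12.5 6, fallen in mesoderm 5 and higher in the interaction 2. By DESeq2 the last 2 were 4 and 1. The share of all genes called is not given for these fits, so these counts are not read as a result about the members. Exon bins called 123 genes at a minimum of 30 counts, 434 with the replicate block and 297 by limma. With 1 library left out, a group of 1 was assumed to vary like the others, and the counts of all genes called ran from 2084 to 2436 at E9.5, 2692 to 2991 a day later, 1803 to 3159 at E11.5, 1110 to 1550 and 2773 to 3435 for the ectoderm and mesoderm changes and 649 to 937 for the interaction. Members ran from 4 to 6 lower at E9.5, 2 to 8 higher and 5 to 14 lower at E11.5, 2 to 4 risen and 5 to 8 fallen in ectoderm, 1 to 2 fallen in mesoderm, and 0 to 1 higher and 6 to 10 lower in the interaction. The cause of these shifts was not tested. Depth limits members under about 1 CPM, such as Adamts16, Timp4, Adam5 and Adam7.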
